A study of Mus musculus with 17 samples.

Results

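The 33 genes described here encode proteins that find, signal and repair breaks in DNA, most of them by homologous recombination, and their RNA was measured in whole mammary glands of mice of 4 genotypes. They were chosen by name, as every row of the deposited table whose gene symbol is one of the 33, and all 33 symbols were found. They take up 34 of the 30843 loci of the table, because Atr is listed at 2 loci. The animals were nulliparous female C57Bl/6 mice, and polyadenylated RNA was sequenced in 17 libraries. BRCA mice had the genotype Brca1fl11/fl11/MMTV-Cre/p53+/-: exon 11 of both Brca1 alleles can be cut out by Cre, the Cre is driven by the MMTV promoter, and 1 of the 2 copies of Trp53 is missing. AROM mice carried CYP19A1, which encodes the enzyme aromatase and so the last step of estrogen synthesis, under a tetracycline-responsive promoter with the activator rtTA driven by MMTV (tet-op-CYP19A1MMTV-rtTA). CERM mice carried Esr1, the gene of estrogen receptor alpha, in the same arrangement (tet-op-Esr1MMTV-rtTA). WT mice were wild type. The MMTV promoter is active mainly in mammary epithelium, so the Brca1 deletion and the transgenes of these models are aimed at epithelial cells, a part of the cells of a whole gland, while the missing Trp53 copy of the BRCA mice is in every cell. Sources used here give neither age nor any doxycycline treatment, which rtTA needs to act.

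A double-strand break is bound by the MRN complex (the products of Mre11a, Rad50 and Nbn), which calls in the kinase ATM, and CtIP (Rbbp8) helps MRN trim the ends to single strands. The single strands are coated by RPA, and BRCA1 with its partner BARD1, through PALB2 and BRCA2, then helps the coated strand to pair with the sister chromatid, whose intact sequence is copied. Many of these genes are known to be transcribed mainly in cells that are replicating their DNA, when a sister chromatid is at hand, and women who inherit a faulty BRCA1 or BRCA2 copy have a high risk of breast cancer.

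The deposited table has 8 columns, 1 for each genotype in single-end and 1 for each genotype in paired-end sequencing, and holds FPKM, that is fragments scaled by transcript length and by the number of mapped fragments. The labels list 2 single-end libraries of each genotype, and 2 paired-end libraries of BRCA, 3 of AROM, 3 of CERM and 1 of WT glands, but no value of a single library is in the columns. Each value is therefore the authors' single value for a genotype and layout. It has no replicate check, and no p-value is given. The labels say that libraries were sequenced by both methods, so that the columns of 1 genotype are not independent measurements. The numbers of reads are unknown. In the WT columns 65.6% (single-end) and 65.5% (paired-end) of the values above 0 had repeating decimals, as a mean of 3 values has, against at most 0.0232% in each of the other 6 columns. The sources used here do not say how the WT columns were made, and every ratio to WT carries this limit. In the paired-end AROM column, levels were lower in general: the median over the 12359 loci that passed a filter (4 or more of the 8 columns at 1 FPKM or above) was 7.48 FPKM in it, against 8.25 to 9.72 FPKM in the other 7 columns. Its FPKM nevertheless summed to 119835000 over all loci of the table, against 894860 to 6243130 in the other 7 columns. Below, pairs of values give the single-end column first and the paired-end column second, and ratios are of the FPKM as deposited unless stated.

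The promoters of the genes described first are shown because many of the 33 share a motif there. The motifs were searched on both strands of windows from 250 bases before to 50 bases after the start of transcription (RefSeq, GRCm38.p6, a later build than the mm9 of the deposited table). A window was held for 28 of the 33 genes, all but Rad50, Nbn, Xrcc2, Fancd2 and Rbbp8, with 31 windows in all. The E2F motif was searched in 4 spellings, of which the first was TTCCCGC, the second TTGGCGC, the third TTCGCGC and the fourth TTGCCGC. It was in 18 of the 31 windows (58.1%), against 9.57% of all 32851 windows and 16.2% of the 11018 windows of genes that passed the filter. The CCAAT box (CCAAT) was in 54.8% of the 31 windows, against 37.4% of all windows and 37.0% of those of genes that passed the filter; on the other strand it reads ATTGG, which can overlap the spelling TTGGCGC. The CHR element (TTTGAA or TTCGAA), which is known from promoters of genes of mitosis, was in 6.45% of the 31 windows, against 19.2% of all windows and 13.6% of those of genes that passed the filter. The 6 windows below are given from 5′ to 3′ on the strand of the gene, with matches to the E2F motif in capitals. They are those of Brca1 (chr11:101551906-101552205, minus strand), Bard1 (chr1:71102923-71103222, minus strand), Chek1 (chr9:36726609-36726908, minus strand) and Fanci (chr7:79392088-79392387, plus strand), which were among the genes furthest apart between genotypes and have a match, of Rad54l (chr4:116123640-116123939, minus strand; the other Rad54l window starts 1 base further), which was also far apart and has none, and of Xrcc5 (chr1:72307171-72307470, plus strand), which had no match and nearly the same level in BRCA and WT glands.
Brca1: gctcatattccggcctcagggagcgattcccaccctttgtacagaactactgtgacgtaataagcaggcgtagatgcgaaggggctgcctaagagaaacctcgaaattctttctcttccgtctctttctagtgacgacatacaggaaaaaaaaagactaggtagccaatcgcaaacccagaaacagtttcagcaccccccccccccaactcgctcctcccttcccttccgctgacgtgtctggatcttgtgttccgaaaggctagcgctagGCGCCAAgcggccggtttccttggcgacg
Bard1: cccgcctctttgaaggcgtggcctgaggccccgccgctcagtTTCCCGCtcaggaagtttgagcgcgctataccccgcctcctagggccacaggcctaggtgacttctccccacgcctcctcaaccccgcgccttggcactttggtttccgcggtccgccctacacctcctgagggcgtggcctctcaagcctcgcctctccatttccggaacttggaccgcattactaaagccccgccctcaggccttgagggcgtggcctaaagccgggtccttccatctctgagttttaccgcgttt
Chek1: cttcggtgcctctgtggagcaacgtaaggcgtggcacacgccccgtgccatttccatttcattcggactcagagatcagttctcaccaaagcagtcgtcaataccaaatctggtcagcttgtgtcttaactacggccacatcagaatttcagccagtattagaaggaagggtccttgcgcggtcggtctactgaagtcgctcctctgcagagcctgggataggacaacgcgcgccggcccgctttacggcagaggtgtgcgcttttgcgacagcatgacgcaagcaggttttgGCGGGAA
Fanci: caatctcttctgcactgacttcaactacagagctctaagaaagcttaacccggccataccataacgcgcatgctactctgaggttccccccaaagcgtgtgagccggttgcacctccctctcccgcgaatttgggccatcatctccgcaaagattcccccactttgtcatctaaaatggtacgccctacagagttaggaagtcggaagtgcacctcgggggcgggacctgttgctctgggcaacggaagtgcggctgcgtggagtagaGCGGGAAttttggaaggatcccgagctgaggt
Rad54l: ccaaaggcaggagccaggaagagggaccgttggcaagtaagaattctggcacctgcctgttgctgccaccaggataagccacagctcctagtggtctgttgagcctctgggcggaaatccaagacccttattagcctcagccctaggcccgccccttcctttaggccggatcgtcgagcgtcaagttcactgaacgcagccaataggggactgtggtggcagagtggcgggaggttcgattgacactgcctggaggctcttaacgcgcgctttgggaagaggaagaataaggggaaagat
Xrcc5: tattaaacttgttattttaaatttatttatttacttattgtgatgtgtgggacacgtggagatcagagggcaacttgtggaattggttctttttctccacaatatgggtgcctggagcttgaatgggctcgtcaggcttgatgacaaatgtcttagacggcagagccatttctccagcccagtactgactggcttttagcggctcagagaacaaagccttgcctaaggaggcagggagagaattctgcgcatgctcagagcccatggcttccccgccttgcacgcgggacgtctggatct
The match of Brca1 begins at base 22 after the start and reads GCGCCAA on the strand of the gene, and those of Chek1 (base 44) and Fanci (base 19) read GCGGGAA. The match of Bard1, TTCCCGC, begins 208 bases before the start. A match describes these letters only, and binding of a factor was not measured.

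Brca1 and Trp53 are the genes altered in the BRCA mice. Trp53, the gene of the tumour suppressor p53, had 12.3 and 12.1 FPKM in BRCA glands, 29.5 and 20.9 in AROM glands, 28 and 25 in CERM glands and 41.1 and 34.5 in WT glands. Its ratio of BRCA to WT glands was 0.30 and 0.352, and both BRCA columns were below the other 6 columns, which is the direction of the label. Brca1 had 3.28 and 3.29 FPKM in BRCA glands, 0.881 and 0.536 in AROM glands, 0.661 and 0.702 in CERM glands and 1.13 and 0.851 in WT glands. Both BRCA columns were above the other 6, with a ratio to WT of 2.9 and 3.87. A value over the whole Brca1 locus does not measure exon 11 and so does not check the deletion. In the GENCODE M21 annotation the longest Brca1 transcript has 6572 bases in 23 exons, and its longest exon, the one usually called exon 11, has 3315 of them (50.4%). The sources used here do not say how transcripts without that exon entered the estimate.

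Most of the 33 genes were higher in BRCA glands than in WT glands, by a little in most cases and by more in a few. The ratio of BRCA to WT was above 1 for 22 of the 33 in the single-end columns, against 55.5% of the 16149 loci with 1 gene symbol that were above 0 in all 8 columns, and for 28 in the paired-end columns, against 62.0% of those loci. The median ratio over the 33 was 1.24 single-end and 1.31 paired-end, against 1.05 and 1.11 over the 16149 loci. For 22 of the 33, both BRCA columns were above both WT columns (44.0% of the loci), and for 3, Fancc, Mus81 and Xrcc3, both were below (26.9% of the loci). With the columns scaled by median-ratio size factors the paired-end count was 24 above 1 in place of 28 (52.1% of the loci). The single-end count was again 22 (52.7% of the loci). Both BRCA columns were then above both WT columns for 20 genes (40.3% of the loci) and below them for 8 (34.6%). For 19 of the 33 genes both BRCA columns were above all 6 others (28.2% of the loci; 17 and 24.3% after scaling). They were Brca1, Bard1, Palb2, Brca2, Brip1, Rad51c, Rad54l, Mre11a, Rbbp8, Chek1, Fancg, Fancd2, Fanci, Blm, Trp53bp1, Xrcc6, Lig4, Parp1 and Msh6. In whole-gland RNA, fewer cells of a type and less RNA per cell cannot be told apart.

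**Figure D1:**
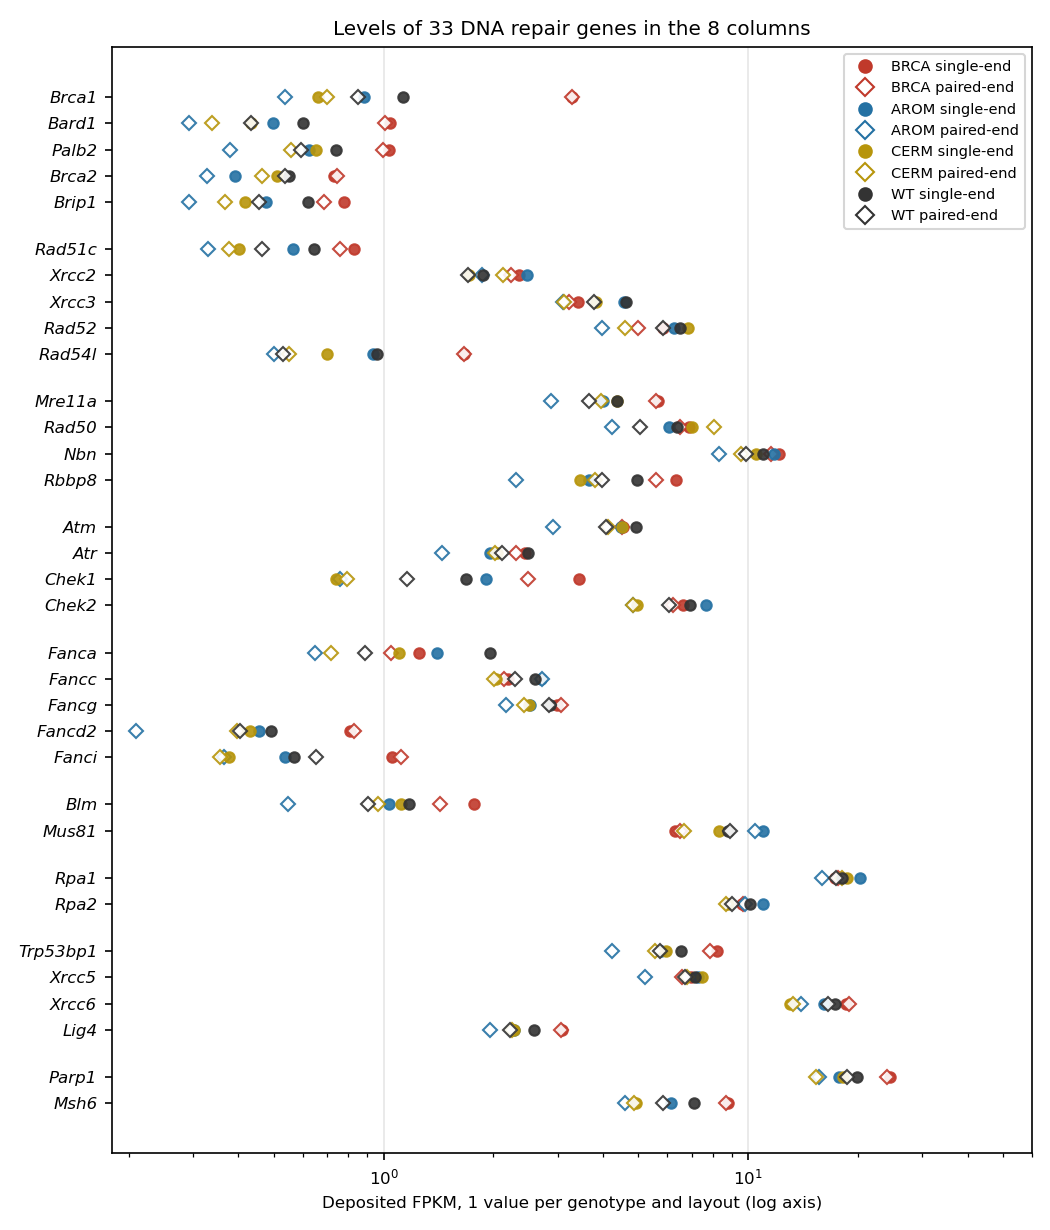
Deposited FPKM (log axis) of the 33 DNA repair genes, grouped by role, with 1 point for each genotype and layout; there are no error bars because each point is the authors' single value. For 19 of the 33 genes both BRCA points lie to the right of the other 6, and Brca1 has 3.28 and 3.29 FPKM in BRCA glands, against 1.13 and 0.851 FPKM in WT glands.

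The genes of the BRCA complexes stood highest in BRCA glands throughout. Brca1 and Bard1, whose products form a ubiquitin ligase, and Palb2, Brca2 and Brip1, whose products link BRCA1 to BRCA2, promote strand pairing and unwind DNA at the break, had ratios of BRCA to WT from 1.25 (Brip1) to 2.90 (Brca1) single-end and from 1.39 (Brca2) to 3.87 (Brca1) paired-end. Bard1 had 1.04 and 1.01 FPKM in BRCA glands, 0.499 and 0.292 in AROM glands, 0.432 and 0.339 in CERM glands and 0.602 and 0.434 in WT glands. In each column pair of Bard1 the BRCA value was the highest, and the AROM value was the lowest paired-end. Palb2 had 1.03 and 0.996 FPKM in BRCA glands, 0.625 and 0.379 in AROM glands, 0.654 and 0.559 in CERM glands and 0.739 and 0.595 in WT glands. Brca2 had 0.73 and 0.744 FPKM in BRCA glands, 0.392 and 0.328 in AROM glands, 0.511 and 0.465 in CERM glands and 0.55 and 0.536 in WT glands. The levels of Bard1, Palb2, Brca2 and Brip1 were all near or under 1 FPKM, so their ratios rest on low values whose counting error is unknown. In AROM and in CERM glands all 5 were below WT in both layouts, with ratios of AROM to WT from 0.713 to 0.847 single-end and from 0.612 to 0.674 paired-end, and of CERM to WT from 0.584 to 0.929 single-end and from 0.782 to 0.940 paired-end.

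Among the 5 genes of strand exchange, Rad54l had the highest ratio of BRCA to WT in both layouts. Rad54l, whose product is a motor protein that moves along DNA during strand pairing, had 1.66 and 1.66 FPKM in BRCA glands, 0.933 and 0.501 in AROM glands, 0.70 and 0.552 in CERM glands and 0.958 and 0.529 in WT glands. Its ratio of BRCA to WT was 1.73 and 3.14, and its exons overlap those of Lrrc41 on the other strand. Rad51c, whose product acts in strand exchange, had 0.828 and 0.758 FPKM in BRCA glands, 0.566 and 0.331 in AROM glands, 0.402 and 0.377 in CERM glands and 0.643 and 0.466 in WT glands. Its ratio of BRCA to WT was 1.29 and 1.63, and both genes were highest in BRCA glands in both layouts. The other 3 were at higher levels. Xrcc3, whose product binds that of Rad51c, had 3.42 and 3.23 FPKM in BRCA glands, 4.57 and 3.1 in AROM glands, 3.82 and 3.13 in CERM glands and 4.64 and 3.79 in WT glands, so that both BRCA columns were below both WT columns. Xrcc2, its relative, had ratios of BRCA to WT of 1.26 and 1.31, and Rad52, which anneals single strands, had 0.90 and 0.855.

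The 4 genes of break sensing and end resection were all above WT in BRCA glands in both layouts, with ratios from 1.08 (Rad50) to 1.3 (Mre11a) single-end and from 1.17 (Nbn) to 1.52 (Mre11a) paired-end. Mre11a, the nuclease of the MRN complex, had 5.65 and 5.58 FPKM in BRCA glands, 4.0 and 2.88 in AROM glands, 4.36 and 3.95 in CERM glands and 4.36 and 3.67 in WT glands. Rad50, its ATPase, had 6.88 and 6.51 FPKM in BRCA glands, 6.06 and 4.23 in AROM glands, 7.0 and 8.04 in CERM glands and 6.39 and 5.05 in WT glands, which made it the only one of the 33 with both CERM columns above the other 6 (5.71% of the loci). Rbbp8 had 6.34 and 5.59 FPKM in BRCA glands, 3.65 and 2.3 in AROM glands, 3.46 and 3.79 in CERM glands and 4.94 and 3.96 in WT glands. Both BRCA columns of Rbbp8 were above the other 6, and both AROM and both CERM columns were below both WT columns. Nbn, the third MRN subunit, ranged from 8.29 to 12.2 FPKM over all 8 columns.

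Of the damage kinases, Chek1 alone was far apart between genotypes. Chek1, the kinase that ATR activates to hold back the cell cycle, had 3.43 and 2.49 FPKM in BRCA glands, 1.91 and 0.76 in AROM glands, 0.742 and 0.793 in CERM glands and 1.68 and 1.16 in WT glands. Its ratio to WT was 2.04 and 2.14 in BRCA glands, 1.14 and 0.653 in AROM glands and 0.442 and 0.682 in CERM glands. Its single-end CERM value was the lowest of the 4 genotypes, and its paired-end CERM and AROM values were close to each other. Atm, the main kinase of double-strand breaks, had 4.52 and 4.49 FPKM in BRCA glands, 4.49 and 2.92 in AROM glands, 4.52 and 4.12 in CERM glands and 4.91 and 4.08 in WT glands, and its BRCA, CERM and WT columns overlapped. Chek2, the kinase downstream of ATM, had ratios of BRCA to WT of 0.956 and 1.02 and of CERM to WT of 0.712 and 0.797. Atr, the kinase of single-stranded DNA, had ratios of BRCA to WT of 0.98 and 1.1 at its main locus. At its second locus Atr was listed with 0.336 FPKM single-end and at 0 paired-end in BRCA glands, at 0 in both columns of AROM and of CERM glands, and with 0.149 FPKM single-end and 0.0532 FPKM paired-end in WT glands.

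The Fanconi anaemia genes, whose products unhook crosslinked strands, differed among themselves. Fancd2 and Fanci, the pair that the upstream core complex marks with ubiquitin, were higher in BRCA than in WT glands, and the core complex genes Fanca, Fancc and Fancg had ratios of BRCA to WT between 0.638 and 1.17. Fanci had 1.05 and 1.12 FPKM in BRCA glands, 0.539 and 0.364 in AROM glands, 0.378 and 0.357 in CERM glands and 0.569 and 0.654 in WT glands, and its exons overlap those of Polg on the other strand. Fancd2 had 0.809 and 0.83 FPKM in BRCA glands, 0.456 and 0.21 in AROM glands, 0.431 and 0.395 in CERM glands and 0.493 and 0.405 in WT glands. For both genes the BRCA columns were above the other 6, but their levels were near or under 1 FPKM and neither passed the filter. Fanca had 1.25 and 1.05 FPKM in BRCA glands, 1.4 and 0.647 in AROM glands, 1.1 and 0.717 in CERM glands and 1.96 and 0.892 in WT glands, so that the ratio of BRCA to WT was below 1 single-end and above 1 paired-end (0.638 and 1.17). Fancc had 2.19 and 2.13 FPKM in BRCA glands, 2.7 and 2.71 in AROM glands, 2.03 and 2.01 in CERM glands and 2.61 and 2.3 in WT glands, with both AROM columns above, and both CERM columns below, the other 6. Fancg had ratios of BRCA to WT of 1.05 and 1.08, and its BRCA columns too were above the other 6.

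Blm and Mus81, whose products resolve joined DNA strands by unwinding and by cutting, went opposite ways. Blm, the helicase, had 1.77 and 1.43 FPKM in BRCA glands, 1.03 and 0.549 in AROM glands, 1.12 and 0.967 in CERM glands and 1.18 and 0.908 in WT glands. Mus81, the nuclease, had 6.29 and 6.49 FPKM in BRCA glands, 11 and 10.4 in AROM glands, 8.34 and 6.68 in CERM glands and 8.78 and 8.92 in WT glands. Both BRCA columns of Mus81 were below the other 6 (the only such gene of the 33, against 13.0% of the loci), and both AROM columns were above them. The exons of Mus81 overlap those of Efemp2 on the other strand, and whether the quantification used strand is not stated in the labels, so that reads of the pair cannot be told apart. In all, exons of 17 of the 33 genes overlap exons of another gene in GENCODE M21, among them Xrcc3, Xrcc6, Trp53bp1 and Msh6 on the other strand. How common such overlap is over all genes was not counted.

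The single-strand binding and end-joining genes had ratios of BRCA to WT between 0.951 (Rpa2) and 1.38 (Lig4) over both layouts. Rpa1 and Rpa2, subunits of RPA, had ratios of BRCA to WT of 0.961 and 1.02 and of 0.951 and 1.07. Xrcc5 and Xrcc6 encode Ku80 and Ku70, which cap broken ends for end joining. Xrcc5 had 6.99 and 6.59 FPKM in BRCA glands, 7.28 and 5.22 in AROM glands, 7.46 and 6.79 in CERM glands and 7.13 and 6.69 in WT glands. Xrcc6 had 18.5 and 18.9 FPKM in BRCA glands, 16.2 and 14 in AROM glands, 13 and 13.2 in CERM glands and 17.3 and 16.5 in WT glands. The BRCA columns of Xrcc6 were above, and its CERM columns below, the other 6, while those of Xrcc5 lay among the rest. Lig4, the ligase of end joining, had ratios of BRCA to WT of 1.2 and 1.38. Trp53bp1, whose product 53BP1 restrains end resection, had ratios of 1.26 and 1.37. Parp1, the sensor of nicked DNA whose inhibitors are used against BRCA-deficient tumours, had the highest level of the 33 in both BRCA columns, with 24.5 and 24 FPKM in BRCA glands, 17.8 and 15.6 in AROM glands, 18.1 and 15.4 in CERM glands and 19.9 and 18.7 in WT glands. Msh6, a subunit of the mismatch sensor, had 8.8 and 8.68 FPKM in BRCA glands, 6.16 and 4.61 in AROM glands, 4.91 and 4.87 in CERM glands and 7.11 and 5.83 in WT glands.

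**Figure D2:**
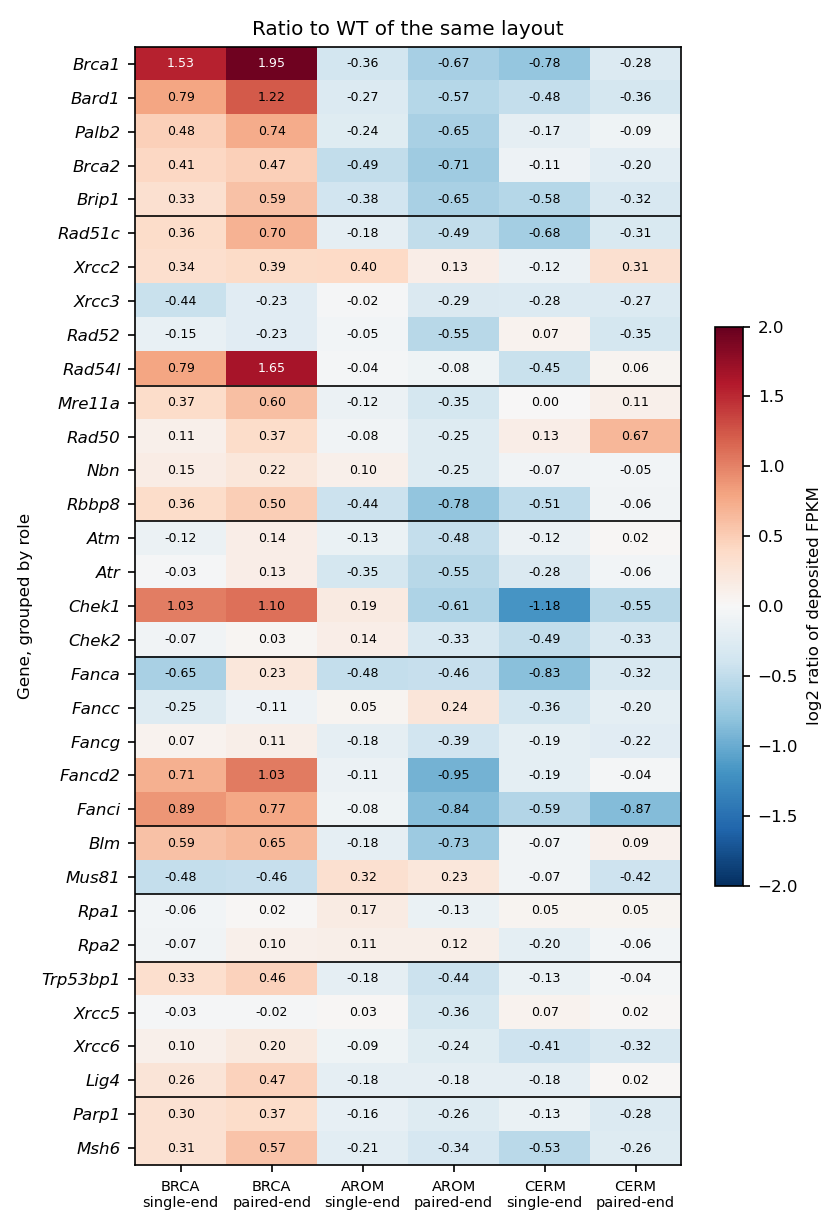
Log2 ratio of deposited FPKM to WT of the same layout for the 33 genes (rows, ruled off by role) in BRCA, AROM and CERM glands, single-end and paired-end. Red is above WT and blue below; the BRCA columns are red for 22 genes single-end and 28 paired-end, and the paired-end AROM column is blue for 29.

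Few of these differences reached 2-fold. On deposited FPKM, 2 of the 33 were at least 2-fold higher in BRCA than in WT glands single-end (9.7% of loci), Brca1 and Chek1, and 5 paired-end (12.4% of loci), Brca1, Bard1, Rad54l, Chek1 and Fancd2. With size factors the counts were 1 single-end, Brca1, and 3 paired-end, Brca1, Bard1 and Rad54l: the ratio of Chek1 was then 1.99 and 1.97, and that of Fancd2 paired-end 1.88. None was at least 2-fold lower in either layout, against 4.69% and 4.25% of loci. The shares that were 2-fold higher are near those of all loci. On the log2 ratio of FPKM + 1, which understates the ratio of low genes, 24 of the 34 loci passed the filter and none of those was past 2-fold in either layout, against 4.84% (single-end) and 5.38% (paired-end) of all loci analysed. The 10 loci that did not pass were those of Brca1, Bard1, Palb2, Brca2, Brip1, Rad51c, Rad54l, Fancd2 and Fanci and the second of Atr. The filter thus leaves out most of the genes with the largest BRCA to WT ratios, and a count over the genes that passed is no count over the 33.

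**Figure D3:**
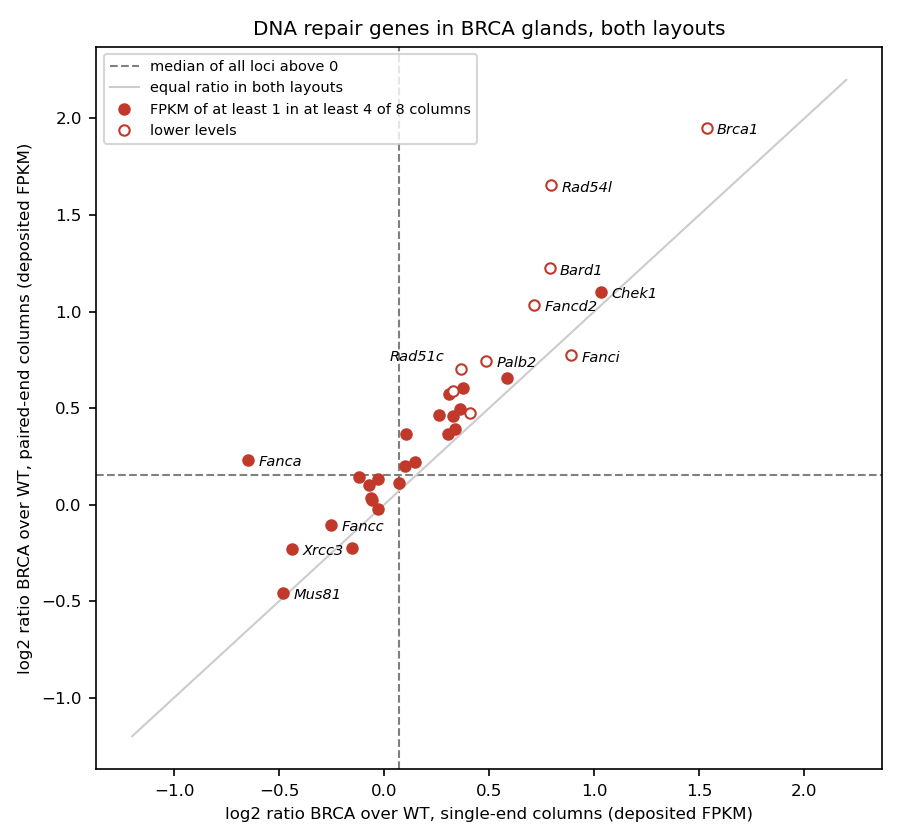
Log2 ratio of BRCA to WT glands for the 33 genes in the single-end columns (horizontal) and the paired-end columns (vertical), on deposited FPKM. Filled points had 1 FPKM or more in 4 or more of the 8 columns, open points did not, and dashed lines mark the median of the 16149 loci (0.07 single-end, 0.15 paired-end); the genes with the largest ratios in both layouts are mostly open points, that is low in level.

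The layouts differed by genotype. In BRCA glands a gene's paired-end and single-end values were a median of 1.04-fold apart over the 33 genes, in AROM glands 1.43-fold, in CERM glands 1.10-fold and in WT glands 1.18-fold. For the 24 of them that passed the filter, the gaps were 1.05, 1.38, 1.10 and 1.14-fold in the same order. Over the 12187 loci that passed the filter and were above 0 in all 8 columns, the gaps were 1.05, 1.28, 1.14 and 1.14-fold. The paired-end value was the lower one for 23 of the 33 genes in BRCA, 32 in AROM, 27 in CERM and 31 in WT glands. Of the 24 genes that passed the filter, it was the lower one for 19 in BRCA, 23 in AROM, 19 in CERM and 23 in WT glands. Of the 12187 loci, it was the lower one for 8326 in BRCA, 9289 in AROM, 7579 in CERM and 9692 in WT glands. BRCA glands held the highest of the 4 levels for 20 genes single-end (38.5% of the 16149 loci) and 25 paired-end (42.4%). The lowest level was in CERM glands for 19 genes single-end (22.1% of the loci) and for 6 paired-end (13.6%), and in AROM glands for 9 single-end (28.6%) and for 25 paired-end (47.6%). Both AROM columns were above the other 6 for Fancc and Mus81 (10.1% of the loci) and below them for Atr and Brca2 (14.4%). Both CERM columns were below the other 6 for Fancc, Rpa2 and Xrcc6 (3.68% of the loci). After scaling this held for 7 genes, against 4.85% of the loci. The WT columns were above all others for 0 genes (4.53% of the loci) and below all others for 0 (5.7%). Which of the 2 estrogen-pathway genotypes was lowest thus depended on the layout.

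In AROM glands, with the aromatase transgene, most of the 33 were somewhat lower than in WT glands. Of the 33 genes, 24 were below WT single-end, against 50.7% of loci, and 29 paired-end, against 60.2% of loci, with median ratios of 0.918 and 0.765, against 0.996 and 0.909 over the loci. None was 2-fold higher or lower in either layout, while 5.65% of loci were 2-fold higher and 5.86% lower single-end, and 4.36% and 10.2% paired-end. Scaling by size factors gave 27 genes below WT and 6 above it paired-end, while 50.3% of loci were above WT. The median ratio was then 0.844, against 1.00 over the loci. Both AROM columns were below both WT columns for 7 genes (26.1% of the loci), Brca2, Rbbp8, Atr, Fancg, Fanci, Xrcc6 and Parp1, and above them for Fancc and Mus81 (22.0% of the loci). After scaling they were below for 15 genes (29.8% of the loci) and above for 5 (29.4%). On FPKM + 1 no gene that passed the filter was past 2-fold, against 3.95% and 4.67% of loci.

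CERM glands, with the Esr1 transgene, also had lower levels than WT glands for most of the 33. There were 28 genes below WT single-end, against 53.9% of loci, and 24 paired-end, against 44.0% of loci, with median ratios of 0.876 and 0.874, against 0.976 and 1.04 over the loci. Scaling gave 28 genes below WT single-end and 27 paired-end, while 50.2% and 50.4% of loci were above WT. Both CERM columns were below both WT columns for 17 genes (23.7% of the loci; 22 and 28.2% after scaling): Brca1, Bard1, Brca2, Brip1, Rad51c, Rbbp8, Atr, Chek1, Chek2, Fancc, Fancg, Fanci, Mus81, Rpa2, Xrcc6, Parp1 and Msh6. Both were above for Rad50 and Rpa1 (28.0% of the loci). Chek1 was the only gene at least 2-fold lower, single-end (3.89% of loci), and none was paired-end (3.88%). None was at least 2-fold higher, against 7.23% of loci single-end and 8.52% paired-end. On FPKM + 1 no gene that passed the filter was past 2-fold, against 4.11% and 4.03% of loci.

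Set directly against AROM glands, BRCA glands had higher levels of 23 genes single-end, against 53.9% of loci, and of 30 paired-end, against 65.3% of loci. After scaling the counts were 22 of the 33 single-end (51.8% of loci) and 27 paired-end (53.1%). At least 2-fold higher were 2 genes single-end (13.1% of loci), Brca1 and Bard1, and 12 paired-end (22.5% of loci; 9 genes after scaling), and none was at least 2-fold lower (6.68% and 6.6% of loci). The ratio of BRCA to AROM was 3.72 and 6.14 for Brca1 and 2.08 and 3.46 for Bard1. Both BRCA columns were above both AROM columns for 22 genes (45.6% of the loci) and below them for Fancc, Mus81 and Rpa2 (27.5% of the loci). After scaling they were above for 21 genes (41.4% of the loci) and below for 5 (35.8%). Scaling matters here: in the paired-end columns the median log2 ratio of FPKM + 1 over all loci analysed was 0.21 as deposited and -0.01 with size factors, and that of the repair genes that passed the filter was 0.42 as deposited and 0.20 with size factors. On FPKM + 1 no gene that passed the filter was past 2-fold, against 7.92% and 14.5% of loci.

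Against CERM glands, BRCA glands had higher levels of 27 genes single-end, against 55.8% of loci, and of 29 paired-end, against 56.9% of loci. Scaling gave 26 of the 33 single-end (49.7% of loci) and 28 paired-end (50.9%). At least 2-fold higher were 6 genes single-end (8.79% of loci), which were Brca1, Bard1, Rad51c, Rad54l, Chek1 and Fanci, and 7 paired-end (9.28% of loci), which were these and Fancd2. With size factors the counts were 5 and 5, without Rad51c, whose ratio was then 1.96 and 1.91, and without Fancd2, at 1.996. None was at least 2-fold lower (6.34% of loci single-end and 5.61% paired-end). The ratio of BRCA to CERM was 4.96 and 4.69 for Brca1, 4.63 and 3.14 for Chek1 and 2.79 and 3.13 for Fanci. It was 2.41 and 2.99 for Bard1, 2.37 and 3.01 for Rad54l and 2.06 and 2.01 for Rad51c. Both BRCA columns were above both CERM columns for 25 genes (40.4% of the loci) and below them for Mus81, Rad50 and Rpa1 (27.9%). After scaling they were above for 25 genes (35.6% of the loci) and below for 4 (33.9%). On FPKM + 1 only Chek1 was past 2-fold among the genes that passed the filter, single-end (4.96% of loci), and none was paired-end (4.41%). The comparisons with AROM, with CERM and with WT share the BRCA columns.

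Between the 2 estrogen-pathway genotypes the layouts gave opposite directions as deposited, and with size factors the paired-end columns were close to even. CERM glands had higher levels than AROM glands for 11 genes single-end, against 49.1% of loci, and for 26 paired-end, against 67.3% of loci. After scaling the counts were 13 of the 33 single-end (53.2% of loci) and 17 paired-end (55.1%). The scaled median ratios were 0.916 and 1.00, against 1.02 and 1.05 over the loci. Chek1 was at least 2-fold lower in CERM glands single-end (3.08% of loci), with 0.742 FPKM in CERM and 1.91 FPKM in AROM glands, while the paired-end values were 0.793 FPKM in CERM and 0.76 FPKM in AROM glands, where no gene was 2-fold lower (3.72% of loci). None was at least 2-fold higher (6.11% of loci single-end and 12.7% paired-end). Both CERM columns were above both AROM columns for Atr, Brca2 and Rad50 (30.4% of the loci) and below them for Fancc, Mus81, Rpa2 and Xrcc6 (19.0% of the loci). After scaling they were above for 5 genes (31.5% of the loci) and below for 10 (24.5%). On FPKM + 1 no gene that passed the filter was past 2-fold, against 2.24% and 6.08% of loci.

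Read by promoter, the median ratio to WT of the genes with an E2F motif lay further from 1 than that of the genes without it in each of the 3 genotypes and both layouts. The 16 genes with the motif in at least 1 window had a median ratio of BRCA to WT of 1.25 single-end and 1.44 paired-end, and the 12 genes without it 0.980 and 1.13. In AROM glands the medians were 0.884 and 0.696 with the motif, and 0.946 and 0.801 without it. In CERM glands they were 0.735 and 0.817 with the motif, and 0.90 and 0.950 without it. The ranges of the 2 sets overlapped each time, and no test was made of the difference. Rad54l, for instance, had no match and a ratio of BRCA to WT of 1.73 and 3.14, and Rad52 had a match and 0.90 and 0.855.

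A list of 120 other DNA repair genes was read beside the 33, and 111 of its loci were above 0 in all 8 columns. Past 2-fold in BRCA against WT glands were 3 higher and 3 lower loci single-end (9.7% and 4.69% of all loci), and 6 higher and 1 lower paired-end (12.4% and 4.25%), with a median log2 ratio of 0.04 single-end and 0.14 paired-end, against 0.30 and 0.39 for the 33. For AROM against WT, 2 were higher and 1 lower single-end (5.65% and 5.86% of all loci), and 1 higher and 1 lower paired-end (4.36% and 10.2%), with a median log2 ratio of -0.03 and -0.22. For CERM against WT, 2 were higher and 3 lower single-end (7.23% and 3.89% of all loci), and 2 higher and 2 lower paired-end (8.52% and 3.88%), with a median of -0.14 and -0.07. Each of these counts was a smaller share of the other repair loci than of all loci. The other repair genes thus lay closer to the loci as a whole than the 33 did in BRCA glands, with no test of that difference. By group, the median log2 ratio of BRCA to WT was 0.24 and 0.27 over 16 loci of damage signalling, 0.07 and 0.29 over 21 loci of homologous recombination and resection, 0.12 and 0.42 over 9 of mismatch repair, 0.12 and 0.14 over 9 of the Fanconi pathway, -0.08 and 0.03 over 13 of end joining, and -0.08 and 0.02 over 30 of base and nucleotide excision repair. These groups do not cover all 111 loci, because the genes of translesion synthesis and direct reversal are not given as a group.

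Of the 103 other repair loci that passed the filter, those 2-fold apart from WT in both layouts on FPKM + 1 were Psmc3ip and Ercc2. The share of all loci that meets this rule was not counted, and exon overlap was not checked for these genes. Psmc3ip, whose product HOP2 aids strand exchange, had 4.65 and 3.57 FPKM in BRCA glands, 23.1 and 20.5 in AROM glands, 2.4 and 2.39 in CERM glands and 22.7 and 20.3 in WT glands. The log2 ratio to WT of its FPKM + 1 was -2.07 and -2.22 in BRCA glands, and -2.80 and -2.66 in CERM glands, while its AROM and WT levels were close. Ercc2, a helicase of nucleotide excision repair and of the transcription factor TFIIH, had 4.79 and 4.5 FPKM in BRCA glands, 165 and 4.72 in AROM glands, 141 and 308 in CERM glands and 40.3 and 7.61 in WT glands. Its AROM, WT and CERM columns were each far apart between the layouts. The log2 ratio of CERM to WT of its FPKM + 1 was 1.79 and 5.17.

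Most genes of dividing cells were higher in BRCA than in WT glands, and most were lower in AROM and in CERM than in WT glands. The summed FPKM of 24 proliferation genes was 220.1 single-end and 215 paired-end in BRCA glands, 121 and 76.7 in AROM glands, 104 and 103 in CERM glands, and 161 and 128 in WT glands. The sum was highest in BRCA glands and second highest in WT glands in both layouts, and none of the 24 genes was at 0 in any column. Above WT in BRCA glands were 20 of the 24 single-end (55.5% of loci) and 24 paired-end (62.0%), with a median log2 ratio of 0.55 and 0.77. At least 2-fold higher were 1 single-end (9.7% of loci) and 8 paired-end (12.4%). In AROM glands 23 were not above WT single-end (50.7% of loci) and 23 paired-end (60.2%), with a median log2 ratio of -0.43 and -0.84. At least 2-fold lower were 2 single-end (5.86% of loci) and 10 paired-end (10.2%). In CERM glands 23 were not above WT single-end (53.9% of loci) and 21 paired-end (44.0%), with a median log2 ratio of -0.61 and -0.29. Of these, 1 was at least 2-fold lower single-end (3.89% of loci) and 0 paired-end (3.88%). Top2a, the topoisomerase of dividing cells, had 17 and 16 FPKM in BRCA glands, 5.27 and 2.79 in AROM glands, 5.44 and 4.62 in CERM glands and 7.4 and 5.6 in WT glands. Mki67, which encodes the marker Ki-67, had 11 and 10.6 FPKM in BRCA glands, 3.78 and 2.11 in AROM glands, 5.16 and 4.02 in CERM glands and 6.86 and 5.65 in WT glands. For both genes the BRCA columns were above the other 6 and the AROM and CERM columns below both WT columns. The part of proliferation in the differences of the repair genes was not tested.

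Markers of the cell types of the gland also differed between genotypes, and markers of epithelium, fat, muscle and immune cells were found in every column. The summed FPKM of 9 epithelial markers was 933 single-end and 928 paired-end in BRCA glands, 449.8 and 268 in AROM glands, 624 and 585 in CERM glands, and 905 and 731 in WT glands. That of 10 B and T lymphocyte markers was 96.9 and 93.6 in BRCA glands, 18.9 and 16.5 in AROM glands, 37.2 and 33.2 in CERM glands, and 30.4 and 23.0 in WT glands. That of 7 macrophage markers was 436 and 428 in BRCA glands, 248.8 and 229 in AROM glands, 264 and 376 in CERM glands, and 238 and 179.7 in WT glands. Both immune sums were thus highest in BRCA glands, and the epithelial sum was lowest in AROM glands. The adipocyte sum over 8 markers was lowest in BRCA glands, with 10244 and 9539 FPKM, and was 23598 and 29023 in AROM, 13478 and 17445 in CERM, and 15365 and 11879 in WT glands. That of 7 skeletal muscle markers was 12305 and 12064 in BRCA glands, 27581 and 18101 in AROM glands, 29568 and 22326 in CERM glands, and 9470.0 and 15759 in WT glands. Of the listed markers, 9 of 12 were found for epithelium, 7 of 8 for macrophages and 7 of 8 for skeletal muscle. The epithelial list included Esr1, the gene of the CERM transgene. No marker that was found was at 0 in any column. The part of these cell types in the repair gene levels was not tested.

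**Figure D4:**
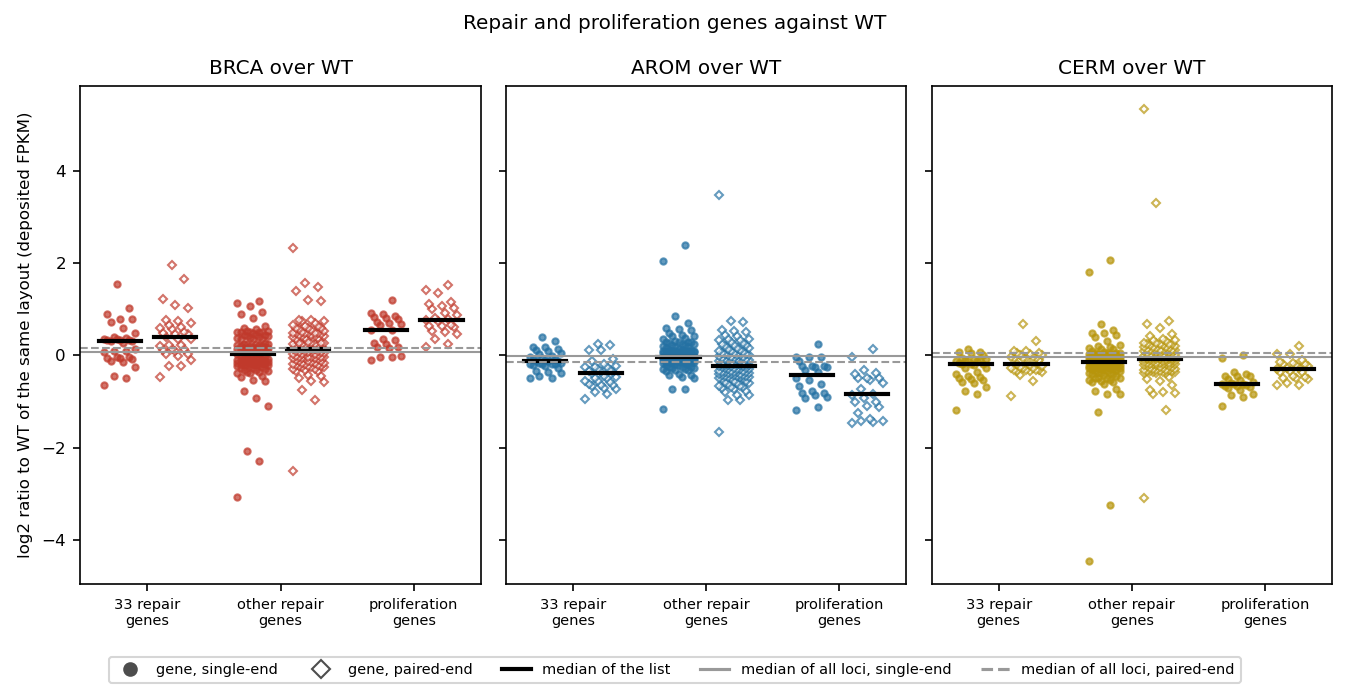
Log2 ratio to WT of the same layout, on deposited FPKM, for the 33 repair genes, 111 loci of other repair genes and 24 proliferation genes in BRCA, AROM and CERM glands; each point is a gene and black bars are medians. The proliferation genes have medians of 0.55 and 0.77 in BRCA glands, and the 33 repair genes of 0.30 and 0.39, against 0.07 and 0.15 over all loci.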

How the data were processed

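Polyadenylated RNA of whole mammary glands was turned into TruSeq libraries for an Illumina HiSeq instrument, per the labels' protocols. The submitters' processing notes name FastQC, Trim Galore, TopHat, Cufflinks and the mouse build mm9; versions, strand handling and the way libraries were combined are not stated there. The deposited table gives FPKM in 8 columns, which were used as deposited. Of its 30843 loci, 8119 had no gene name and 585 had several symbols, and the 22139 with 1 symbol were used. No column belongs to a single library, so neither the planned limma fit nor leaving out a library was possible, and no test was made.

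The planned call was a log2 ratio of FPKM + 1 of at least 2-fold, with both values above 0, over the 12359 loci at 1 FPKM or above in 4 or more columns. Because low genes fail it, ratios of deposited FPKM over the 16149 loci above 0 in all 8 columns were added after the data had been seen. A repair gene is given in all columns when it is at least 2-fold apart in the same direction in both layouts of a comparison on that ratio, or listed at 0; the other genes named are examples for their role. Other repair genes were named by the planned call, up to 3 per comparison with WT and direction. The 33 genes and the gene lists were chosen with earlier results of these data known. Size factors were median ratios over 12187 loci. Alternatives were a pseudocount of 0.1, no filter, a filter on at least 2 of the 4 columns of a layout, and the size factors. The value of 1 other gene is not reported here. The calling script was checked on simulated data. Python 3.11.15, numpy 2.4.6 and pandas 2.3.3 were used.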

Additional observations from a re-analysis of the deposited data

How the results depend on the processing

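No paired analysis was possible because the columns are pooled and carry no replicate numbers, and for the same reason no library could be left out. Read numbers are unknown, so the counting error of the low genes cannot be given. The number of repair genes past 2-fold on the planned scale was 0 in every comparison except BRCA against CERM single-end, where it was 1, and scaling by size factors changed none of these 12 counts. A pseudocount of 0.1 gave 1 for BRCA against WT paired-end, CERM against WT single-end, BRCA against CERM paired-end and CERM against AROM single-end, and 3 for BRCA against AROM paired-end, where 3.52% to 21.3% of all loci were past 2-fold. With no filter on low values the count was 1 for BRCA against WT and BRCA against AROM in both layouts and for BRCA against CERM paired-end, and 2 for BRCA against CERM single-end, beside 4.04% to 11.3% of loci. The filter within a layout gave 1 for BRCA against WT and BRCA against AROM single-end, and 2 for BRCA against CERM single-end, beside 5.08% to 8.27% of loci. The pseudocount of 0.1 without a filter, which was added after seeing the data, gave 1 for BRCA against WT single-end (10.1% of loci), 4 paired-end (10.98%), 1 for CERM against WT single-end (7.12%), 1 for BRCA against AROM single-end (14.5%), 10 paired-end (21.8%), 5 for BRCA against CERM in both layouts (10.5% and 9.99%) and 1 for CERM against AROM single-end (5.15%). These shares are of loci higher or lower. The median log2 ratio of the repair genes for CERM against AROM paired-end was 0.13 as deposited and turned to -0.0068 with size factors.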
